A study of Homo sapiens with 7 samples.

Results

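HERVH is an endogenous retrovirus with many copies in the human genome, and LTR7 and its relatives are the long terminal repeats (LTRs) that flank it. The regions described here were chosen by name only: every annotated copy called HERVH-int or HERVH48-int (internal regions) or LTR7, LTR7A, LTR7B, LTR7C or LTR7Y (LTRs). They make up 7 of the 498 repeat families counted in both deposited sets. They hold 9801 of 712115 annotated copies in set 1 and 9714 of 703140 in set 2. By family, set 2 counted 5865 copies of HERVH-int, 117 of HERVH48-int, 2323 of LTR7, 15 of LTR7A, 833 of LTR7B, 312 of LTR7C and 249 of LTR7Y. The 87 copies counted in set 1 alone lay on contigs other than the assembled chromosomes and held 0, 2 and 2 reads in its 3 libraries.

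A complete HERVH provirus consists of an internal region with the remains of viral genes, between a pair of LTRs. The LTR at the 5′ end acts as promoter and the LTR at the 3′ end supplies the polyadenylation signal, while recombination between them leaves a solo LTR. LTR7 is known for its activity in human pluripotent stem cells and early embryos, where HERVH gives rise to long noncoding RNAs, and LTR7B, LTR7C and LTR7Y are subfamilies told apart by sequence. HERVH48-int is the internal region of a related group whose own LTR is MER48. Double-stranded RNA forms where complementary transcripts pair, and long double-stranded RNA is a trigger of the antiviral sensor MDA5.

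The libraries hold RNA recovered with J2, an antibody against double-stranded RNA, from HCT116, an established human colon carcinoma cell line. Cells in the 5-Aza-CdR and Combination groups received 0.3 µM of the DNA methylation inhibitor 5-Aza-CdR (5-aza-2′-deoxycytidine) and had the medium replaced after 24 h. Cells of all 7 libraries, PBS and Vc included, were harvested on day 5. PBS was the control. The labels give no dose of Vc, alone or in the Combination, and do not spell out what Vc stands for or what the Combination adds. From the paper on this work, Vc is known to stand for vitamin C, combined with 5-Aza-CdR in the Combination. Set 1 has a PBS, a 5-Aza-CdR and a Combination library, and set 2 a PBS, a Vc, a 5-Aza-CdR and a Combination library, so each treatment occurs at most 1 time per set. Where 3 or 4 values follow each other without names, they stand in this order. The question of the design is how the double-stranded RNA of treated cells differs from that of PBS cells. All groups come from the same line, so nothing here describes other cells. Whether the libraries of a treatment go back to separate cultures is not in the labels, and p-values then measure only the spread between these libraries, which may be technical.

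Family reads per library ranged from 11531 to 32403. The sets were counted in separate workbooks, that of set 2 after duplicates were marked, and levels are compared between treatments within a set. Intervals of shares and ratios are 95% intervals that cover counting error only. More RNA of a family and more cells making it cannot be told apart in bulk libraries. The placement of reads that match several copies is not stated in the labels or file headers, so a read counted at 1 copy may come from a near-identical copy elsewhere.

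Together the 7 families took a much larger share of reads in set 2 than in set 1, and in each set the PBS library had the highest share. In set 1 they held 4.63% of family reads for PBS (Wilson interval 4.36 to 4.90), 3.53% for 5-Aza-CdR (3.21 to 3.88) and 3.51% for the Combination (3.22 to 3.83). In set 2 they held 13.1% for PBS (12.6 to 13.6), 10.4% for Vc (10.0 to 10.9), 11.8% for 5-Aza-CdR (11.4 to 12.2) and 9.28% for the Combination (8.97 to 9.60). Per family read, the treated libraries stood at 0.763 (0.679 to 0.856) and 0.759 (0.682 to 0.845) of PBS after 5-Aza-CdR and the Combination in set 1. In set 2 they stood at 0.899 (0.852 to 0.95) after 5-Aza-CdR, 0.710 (0.673 to 0.749) after the Combination and 0.798 (0.752 to 0.847) after Vc. All 5 treated libraries thus lay below the PBS library of their set beyond counting error, each against 1 PBS library. These ratios depend on what a library is scaled by: per tRNA read, which set 1 gives for each library, the members stood at 2.32 times PBS after 5-Aza-CdR and 6.86 times after the Combination. Per read of the locus sheets, whose totals in set 1 were 133279, 39098 and 50826 against 23131, 11531 and 14319 family reads, they stood at 1.30 and 1.23 times PBS.

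**Figure D1:**
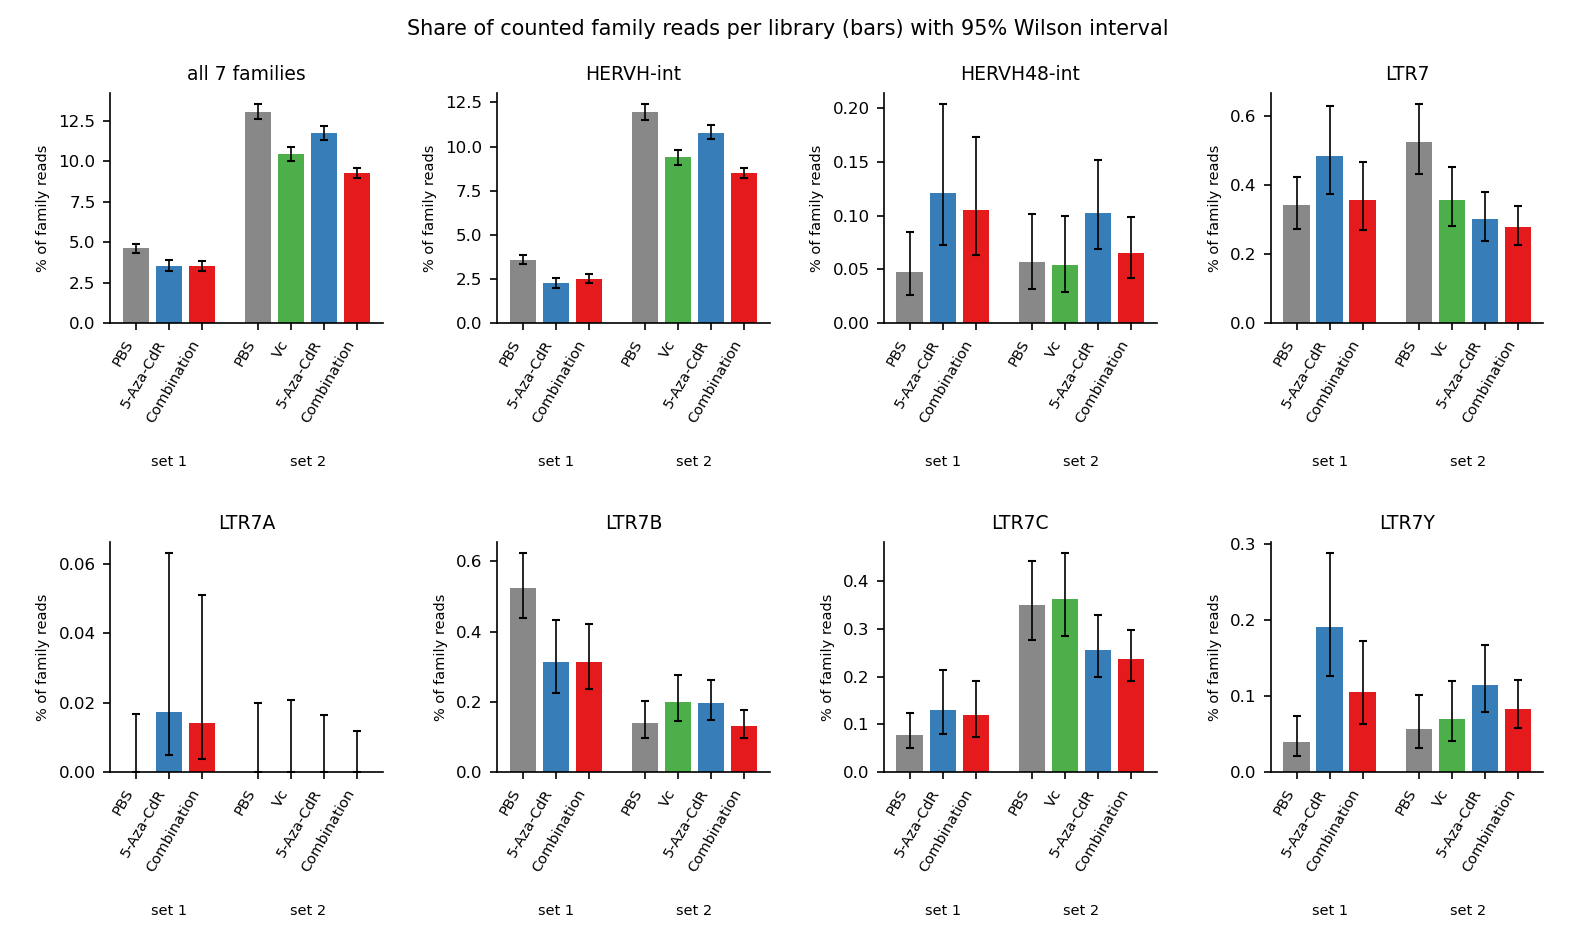
Share of counted family reads (percent, linear axis from 0) in each of the 7 libraries for the 7 families together and for each family; bars are single libraries and error bars are 95% Wilson intervals. HERVH-int sets the pattern of the total, with its highest share in the PBS library of each set, while LTR7Y and HERVH48-int have their highest share in the 5-Aza-CdR library of each set.

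HERVH-int, the internal region, carried most of these reads. It had 832 reads for PBS, 262 after 5-Aza-CdR and 358 for the Combination of set 1, and 2324 for PBS, 1737 for Vc, 2539 after 5-Aza-CdR and 2751 for the Combination of set 2. It made up between 64.4% and 77.8% of member reads across set 1 and between 90.0% and 91.8% in set 2. Per family read, its ratio to PBS was 0.632 (0.548 to 0.727) after 5-Aza-CdR and 0.695 (0.612 to 0.788) after the Combination in set 1. In set 2 these ratios were 0.903 (0.853 to 0.956) and 0.711 (0.672 to 0.751), and that of Vc was 0.786 (0.738 to 0.837). Per family read HERVH-int was thus highest in the PBS library of both sets. In set 1 this turned with the scaling: per tRNA read 5-Aza-CdR and the Combination stood at 1.92 and 6.28 times PBS, and per locus read at 1.07 and 1.13 times.

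The LTRs had far fewer reads than the internal region. LTR7, the most numerous LTR, had 79, 56 and 51 reads for PBS, 5-Aza-CdR and the Combination of set 1, and 102, 66, 71 and 90 for PBS, Vc, 5-Aza-CdR and the Combination of set 2. Its ratio of 5-Aza-CdR to PBS was 1.42 (0.991 to 2.03) in set 1 and 0.575 (0.419 to 0.787) in set 2, so the sets went opposite ways. LTR7B had 121, 36 and 45 reads across set 1 and 27, 37, 46 and 42 in set 2, high in a single PBS library and low in the other. LTR7C had 18, 15 and 17 reads across set 1 and 68, 67, 60 and 77 in set 2, and per family read its Combination library of set 2 stood at 0.680 of PBS (0.484 to 0.956). LTR7A was seen only as 2 reads after 5-Aza-CdR and 2 for the Combination of set 1. In the other 5 libraries it had 0 reads, where a floor of 3 counts sets an upper limit to its share. That limit ran from 0.00926% to 0.0162% of family reads, depending on the library.

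LTR7Y and HERVH48-int were the members with more reads per family read in the 5-Aza-CdR library of both sets. LTR7Y had 9 reads for PBS, 22 after 5-Aza-CdR and 15 for the Combination of set 1, and 11 for PBS, 13 for Vc, 27 after 5-Aza-CdR and 27 for the Combination of set 2. Within each set PBS was the lowest library, but Vc stood at only 1.24 times PBS per family read (0.514 to 3.06). How many of the other families show the same order was not counted. Per family read, 5-Aza-CdR stood at 4.90 times PBS (2.17 to 12.1) in set 1 and 2.03 times (0.974 to 4.53) in set 2, and the Combination at 2.69 times (1.10 to 6.98) and 1.47 times (0.707 to 3.29). HERVH48-int had 11, 14 and 15 reads across set 1 and 11, 10, 24 and 21 in set 2. Its 5-Aza-CdR library stood at 2.55 times PBS (1.08 to 6.21) in set 1 and 1.80 times (0.851 to 4.08) in set 2, above PBS in both sets, although the interval of set 2 includes 1.

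Per base of annotated sequence the order of the families differed between the sets. In PBS of set 1, LTR7B had 172 reads per Mb and 10000 family reads, ahead of HERVH-int at 64.4, LTR7C at 63.2, LTR7Y at 42.7, LTR7 at 36.5 and HERVH48-int at 22.8. In PBS of set 2, LTR7C led at 284, followed by HERVH-int at 214, LTR7Y at 62.1, LTR7 at 56.0, LTR7B at 45.7 and HERVH48-int at 27.1. The value of LTR7C in PBS of set 2 rested mostly on 2 copies of chromosome 19 described below, with 35 and 21 of its 68 reads. For LTR7B in PBS of set 1, 6 copies described below held 58 of 121 reads, and the other 63 lay elsewhere.

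Treatments were compared across the sets in a fit of all 7 libraries over 352 families (edgeR quasi-likelihood test, treatment and set as terms, Benjamini-Hochberg adjustment over all families, threshold 0.05). Of the 7 members 6 entered it, LTR7A having too few reads. After 5-Aza-CdR 0 of 6 were called, where 1.42% of all families were (all of them higher), and after the Combination 0 of 6, where 2.56% were (2.27% higher and 0.284% lower). Unadjusted p was under 0.05 for 2 of 6 after 5-Aza-CdR and 1 of 6 after the Combination, and DESeq2 called 0 in either, with 1 and 0 at an unadjusted p under 0.05. The median log2 change of the 6 was 0.16 after 5-Aza-CdR and 0.04 after the Combination, against medians of -0.02 and -0.07 over all families. Because the fit takes the typical family as unchanged, these changes are relative to the other repeats.

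LTR7Y had the highest log2 change of the members, 1.83 after 5-Aza-CdR (SE 0.52, interval 0.69 to 2.98, edgeR adjusted p = 0.155) and 1.26 after the Combination (SE 0.52, 0.10 to 2.42, adjusted p = 0.481). Without PBS of set 1, or without PBS of set 2, the fit brought LTR7Y past the threshold after 5-Aza-CdR, at 1.55 (adjusted p = 0.0439) and 2.16 (adjusted p = 0.0121), with 1 PBS library then assumed to vary like the other groups. HERVH48-int followed at 1.30 after 5-Aza-CdR (SE 0.54, adjusted p = 0.362) and 0.94 after the Combination (adjusted p = 0.612). HERVH-int stood at -0.20 (-1.09 to 0.70) and -0.24 (-1.13 to 0.65), an interval that spans lower and higher levels alike. LTR7, LTR7B and LTR7C lay between 0.01 and 0.27 after 5-Aza-CdR and between -0.23 and 0.24 after the Combination. The Combination and 5-Aza-CdR libraries were compared directly too, with 0 of 6 members called (0% of all families), 0 at an unadjusted p under 0.05, and changes between -0.57 and -0.03. For the single Vc library against PBS 0 of 6 were called (0% of all families), 0 at an unadjusted p under 0.05, with changes between -0.63 and 0.50. DESeq2 called 0 of 6 in these comparisons too, with 0 at an unadjusted p under 0.05.

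**Figure D2:**
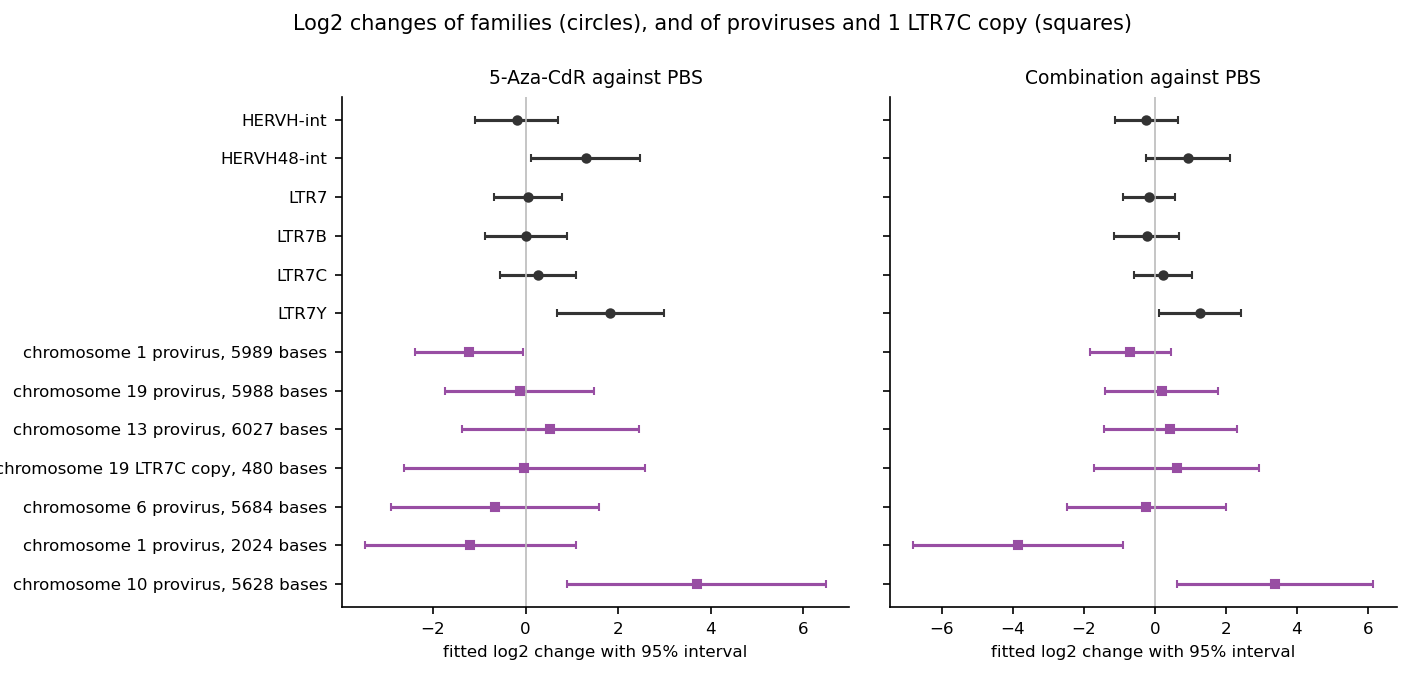
Fitted log2 changes (edgeR, linear axis) of the 6 member families in the family fit (circles) and of 6 proviruses and 1 separate LTR7C copy in the fit of joined copies (squares), with 95% intervals, comparing 5-Aza-CdR and Combination with PBS. Among families LTR7Y lies farthest from 0 in both panels, and among proviruses the chromosome 10 copy lies farthest above it.

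Most copies of these families had no read in any library. Of 9714 copies, 6951 had 0 reads in all 7 libraries, 1579 had reads in 1 library only and 12 had reads in all 7. In set 1 the share of copies with at least 1 read was 4.35% for PBS, 2.99% after 5-Aza-CdR and 3.44% for the Combination. In set 2 it was 10.2% for PBS, 8.54% for Vc, 12.4% after 5-Aza-CdR and 12.1% for the Combination. These shares move with the depth of the library, and the order of the set 2 libraries follows their family reads except that the Combination, the deepest, was second to 5-Aza-CdR. The number of copies needed to hold 50% of member reads was 34, 88 and 84 for PBS, 5-Aza-CdR and the Combination of set 1, and 143, 124, 200 and 148 for PBS, Vc, 5-Aza-CdR and the Combination of set 2. Reads were thus most concentrated in the PBS library of set 1 and most spread out in the 5-Aza-CdR library of each set.

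Long internal copies had reads more often than short ones. Among the 1061 HERVH-int copies of 2000 bases or more, 37.3% had reads in PBS of set 2, against 11.4% of the 1826 copies of 500 to under 2000 bases and 8.19% of the 2978 shorter copies. In PBS of set 1 these shares were 13.9%, 4.55% and 3.83%. Per Mb the order was not the same: in PBS of set 2 the shortest class had 661 reads per Mb, the middle class 365 and the longest 378, and in PBS of set 1 the values were 261, 164 and 115.

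Copies that lay next to each other on the same strand, with gaps of at most 100 bases, were joined into units, here called proviruses. This gave 1362 units with both internal and LTR sequence, 1379 of LTR sequence alone and 186 of internal sequence alone. The units with both kinds held 93.6%, 83.7% and 84.2% of member reads for PBS, 5-Aza-CdR and the Combination of set 1, and between 94.3% and 95.8% in the libraries of set 2. Units of LTR alone held 4.39% for PBS of set 1, against 11.1% after 5-Aza-CdR and 9.98% for the Combination. In set 2 they held 3.34% for PBS, 4.77% for Vc, 3.51% after 5-Aza-CdR and 3.62% for the Combination. In both sets PBS had the lowest share at units of LTR alone, but in set 2 the 5-Aza-CdR and Combination libraries differed from it by little. Of the 85, 92, 97 and 109 reads behind the values of set 2, a single LTR7C copy on chromosome 19, described below as the end of a provirus, held 35, 39, 29 and 39. With gaps of up to 1000 bases allowed, solo LTRs had 48, 39, 66 and 61 reads in set 2.

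The provirus with the most reads lay on chromosome 1 (68851687 to 68857675, plus strand, hg19), a unit of 9 copies and 5989 bases with an LTR7 at either end. It had 315 reads for PBS, 40 after 5-Aza-CdR and 93 for the Combination of set 1, and 308 for PBS, 210 for Vc, 197 after 5-Aza-CdR and 354 for the Combination of set 2. It held 29.4% of all member reads in PBS of set 1 and between 7.12% and 18.6% in the other libraries. Per family read, 5-Aza-CdR stood at 0.255 of PBS (0.179 to 0.355) in set 1 and 0.529 (0.440 to 0.634) in set 2. The Combination stood at 0.477 (0.374 to 0.603) and 0.690 (0.591 to 0.806), and Vc at 0.717 (0.599 to 0.857). Both PBS libraries were above every treated library per family read, and the Combination was above 5-Aza-CdR in both sets, at 1.87 times (1.28 to 2.78) and 1.30 times (1.09 to 1.56). Per tRNA read in set 1 the ratio to PBS was 0.773 after 5-Aza-CdR and 4.31 after the Combination.

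In a fit of 446 units and loci, in which member copies were joined and all other repeats kept as single loci, the log2 change of this provirus was -1.23 after 5-Aza-CdR (SE 0.59, -2.39 to -0.06, edgeR adjusted p = 0.114) and -0.69 after the Combination (SE 0.58, adjusted p = 0.444). It passed the threshold after 5-Aza-CdR without the PBS library of set 1 (-0.65, adjusted p = 0.00728) and without that of set 2 (-1.72, adjusted p = 5.2e-04), and after the Combination without that of set 2 (-1.31, adjusted p = 0.0017). This fit was added after the data had been seen.

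The 9 copies of this provirus did not share the reads evenly. The HERVH-int copy of 2542 bases (68852826 to 68855367) was the top copy of all members and held a mean of 8.51% of member reads over the libraries, with 161, 32 and 75 reads across set 1 and 169, 109, 97 and 176 in set 2. The HERVH-int copy of 500 bases behind it (68855487 to 68855986) had 49, 1 and 2 reads across set 1 and 42, 43, 31 and 64 in set 2, so the treated libraries of set 1 were nearly empty there and those of set 2 were not. A copy of 150 bases between them (68855347 to 68855496) had 19, 1 and 5 reads across set 1 and 44, 30, 36 and 56 in set 2. A copy of 707 bases at the 5′ side (68852123 to 68852829) had 33, 3 and 1 reads across set 1 and 22, 16, 18 and 26 in set 2.

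The 5′ LTR7 of this provirus (68851687 to 68852120) was the only member copy called in the fit of single loci. It had 23 reads for PBS, 0 after 5-Aza-CdR and 3 for the Combination of set 1, and 1 for PBS, 4 for Vc, 0 after 5-Aza-CdR and 3 for the Combination of set 2. The high value was thus that of PBS in set 1 alone, and PBS of set 2 lay below its own Vc and Combination libraries. The fit gave a log2 change of -5.59 after 5-Aza-CdR (SE 2.26, edgeR adjusted p = 0.0473), which with 0 reads in both 5-Aza-CdR libraries depends on the prior count and is no bound. Of 30 member loci with at least 30 reads, this was the 1 called after 5-Aza-CdR, where 30.1% of 409 loci were called, 23.5% higher and 6.6% lower. After the Combination 0 of 30 were called (33.5% of all loci, 26.4% higher and 7.09% lower; 1 of 30 at an unadjusted p under 0.05), and DESeq2 called 0 of 30 in both comparisons with 0 at an unadjusted p under 0.05. For the Combination against 5-Aza-CdR and for Vc against PBS 0 of 30 were called and 0 had an unadjusted p under 0.05 (0% of all loci in each), in edgeR as in DESeq2. The call was lost with total reads as scaling (adjusted p = 0.25), with a minimum of 10 reads (0.133), without the term for the set (0.216) and without any 1 of the 5-Aza-CdR or Combination libraries, and without PBS of set 1 the copy had too few reads to be tested. DESeq2 gave it no adjusted p.

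A provirus with LTR7C at either end lay on chromosome 19 (15939548 to 15946980, plus strand, 4 copies when gaps of up to 1000 bases are allowed). It had 16, 7 and 16 reads for PBS, 5-Aza-CdR and the Combination of set 1 and 102, 99, 85 and 124 for PBS, Vc, 5-Aza-CdR and the Combination of set 2. It held 1.5%, 1.73% and 3.19% of member reads in the libraries of set 1 and 4.01%, 5.13%, 3.07% and 4.12% in those of set 2, so the sets overlapped. Its 5′ LTR7C (15939548 to 15940010) had 8, 2 and 6 reads across set 1 and 21, 18, 14 and 17 in set 2. Its 3′ LTR7C (15946501 to 15946980), the top copy of the LTR7C family, had 0, 0 and 2 reads across set 1 and 35, 39, 29 and 39 in set 2, so it was at or near 0 in every library of set 1 and between 29 and 39 in every library of set 2. The internal copy of 5084 bases (15940452 to 15945535) showed the same contrast, with 0, 3 and 1 reads across set 1 and 40, 33, 31 and 62 in set 2, whereas the 444-base copy before it (15940012 to 15940455) had 8, 2 and 7 reads and 6, 9, 11 and 6. Within set 2, 5-Aza-CdR stood at 0.689 of PBS (0.510 to 0.928) over the whole provirus, the Combination at 0.730 (0.557 to 0.958) and Vc at 1.02 (0.766 to 1.36).

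The provirus on chromosome 13 (109917438 to 109923464, plus strand) has LTR7Y at either end. It had 6, 4 and 4 reads across set 1 and 35 for PBS, 12 for Vc, 49 after 5-Aza-CdR and 74 for the Combination of set 2. Vc was the lowest library of set 2, at 0.361 of PBS per family read (0.17 to 0.711), while 5-Aza-CdR (1.16, 0.735 to 1.84) and the Combination (1.27, 0.838 to 1.96) did not differ from PBS beyond counting error. The Vc value compares 1 library with 1 PBS library, at a provirus named after its values were seen. In the fit of joined copies the log2 change of this provirus for Vc against PBS was -1.44, and it was not called. That estimate rests on the same single Vc library, so it is no separate evidence of a lower level. Its internal copy of 3926 bases (109917870 to 109921795) held most of these reads, with 4, 3 and 2 in set 1 and 26, 10, 40 and 58 in set 2.

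The 3 proviruses of chromosomes 1, 19 and 13 together held 31.5%, 12.6% and 22.6% of member reads for PBS, 5-Aza-CdR and the Combination of set 1, and 17.5%, 16.6%, 12.0% and 18.4% for PBS, Vc, 5-Aza-CdR and the Combination of set 2. Without them, the members stood at 0.969 of PBS after 5-Aza-CdR in set 1 (0.851 to 1.10) and 0.960 in set 2 (0.905 to 1.02), neither different from 1 beyond counting error. Per family read the Combination stayed lower, at 0.855 (0.754 to 0.968) and 0.703 (0.663 to 0.745), as did Vc at 0.807 (0.755 to 0.861). Per tRNA read in set 1 these members stood at 2.94 times PBS after 5-Aza-CdR and 7.72 times after the Combination.

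**Figure D3:**
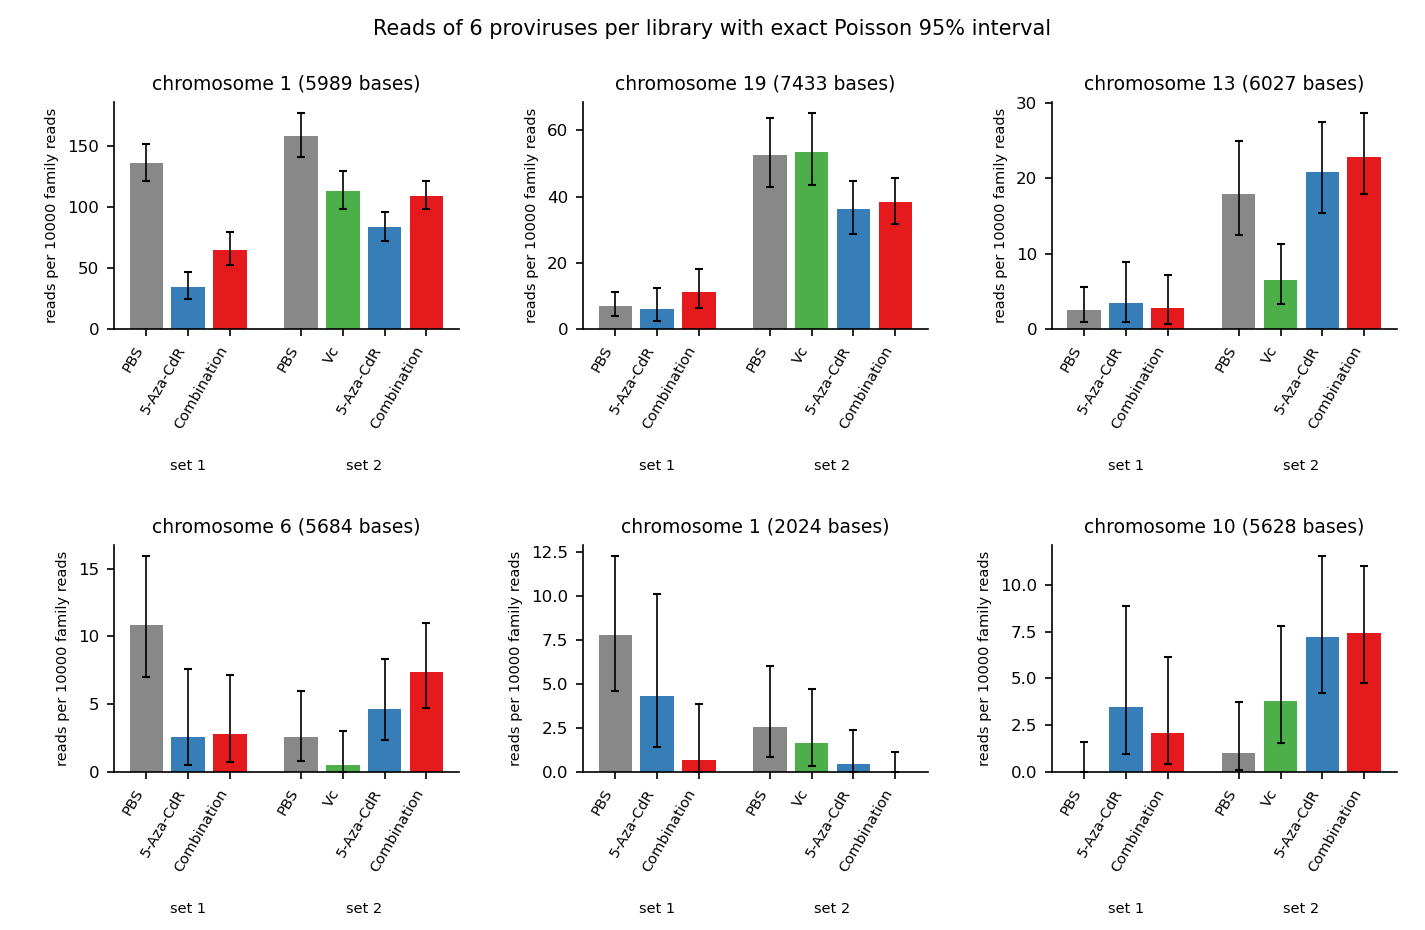
Reads of 6 proviruses per 10000 family reads (linear axes from 0, different in each panel) in each of the 7 libraries; error bars are exact Poisson 95% intervals and cover counting error only. On chromosome 1 (5989 bases) both PBS libraries stand above all treated libraries of their set, on chromosome 19 the libraries of set 2 stand far above those of set 1, and on chromosome 10 the PBS libraries are the lowest of each set.

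Of 67 proviruses tested in the fit of joined copies, 1 was called higher after 5-Aza-CdR (26% of all 446 units and loci were called, 20% higher and 6.05% lower) and 1 lower after the Combination (30.3%, with 23.5% higher and 6.73% lower), and 0 between the Combination and 5-Aza-CdR (0%; 3 at an unadjusted p under 0.05) or for Vc (0%; 0 unadjusted). The members' share was below that of all units and loci in both comparisons with PBS, a difference that was not tested. Units and loci entered with at least 30 reads summed over the 7 libraries. A locus could thus enter, and be called higher, through reads of its treated libraries alone. The provirus called after 5-Aza-CdR lies on chromosome 10 (27754239 to 27759866, plus strand) between LTR7 copies. It had 0 reads for PBS, 4 after 5-Aza-CdR and 3 for the Combination of set 1, and 2 for PBS, 7 for Vc, 17 after 5-Aza-CdR and 24 for the Combination of set 2. Within each set PBS was the lowest library, on few reads, and how many other units show this was not counted. Its log2 change was 3.7 after 5-Aza-CdR (SE 1.42, 0.90 to 6.49, edgeR adjusted p = 0.0404) and 3.39 after the Combination (SE 1.41, adjusted p = 0.0524). The call after 5-Aza-CdR was lost in DESeq2 (adjusted p = 0.147), without the term for the set (0.251) and without any 1 of the PBS, 5-Aza-CdR or Combination libraries.

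The provirus called after the Combination lies on chromosome 1 (192947647 to 192949670, minus strand, 4 copies). It had 18, 5 and 1 reads across set 1 and 5 for PBS, 3 for Vc, 1 after 5-Aza-CdR and 0 for the Combination of set 2. PBS was the highest library of each set and the Combination the lowest. Its log2 change was -3.87 (SE 1.51, -6.83 to -0.91, edgeR adjusted p = 0.0368), with a call that was lost in DESeq2 (0.129), with total reads (0.208), without the term for the set (0.325), and without either Combination library or the 5-Aza-CdR library of set 2. It had too few reads to be tested without either PBS library or the 5-Aza-CdR library of set 1. A provirus on chromosome 6 (145244311 to 145249994, LTR7Y at either end) went opposite ways in the sets, with 25, 3 and 4 reads across set 1 and 5, 1, 11 and 24 in set 2. A minus-strand internal copy on chromosome 8 (98842778 to 98844137) was among the 10 top copies through set 1, with 5, 5 and 9 reads there and 1, 2, 0 and 0 in set 2.

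The commonest layout allowed reads to be placed along the provirus. In 302 units an LTR was followed by 6 HERVH-int copies and a closing LTR, with median lengths, from the 5′ end, of 429, 2963, 148, 503, 661, 217, 378 and 429 bases. In all 4 libraries of set 2 the read density was highest at the internal copies 2 and 3, of 148 and 503 bases. The 503-base copies had 1784 reads per Mb for PBS, 1399 for Vc, 1784 after 5-Aza-CdR and 1824 for the Combination, against 531, 439, 646 and 596 in the 2963-base copies before them. The ratio of these densities was 3.36, 3.18, 2.76 and 3.06, and lay between 2.76 and 3.36 in treated and control libraries alike. The density then dropped in the 661-base copies, to 110 for PBS, 135 for Vc, 316 after 5-Aza-CdR and 175 for the Combination. Values are per Mb of annotated sequence in the raw reads of a library, and libraries differ in depth.

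Many proviruses contributed to the peak. Of the 302 copies of about 503 bases, 30.1% had reads in PBS of set 2, 26.2% for Vc, 34.8% after 5-Aza-CdR and 32.8% for the Combination, with at most 11 reads at any 1 copy. In the same libraries the 661-base copies, which are longer, had reads in 6.29%, 7.62%, 18.2% and 9.93% of proviruses. In set 1 the profile was different. The ratio of the 503-base to the 2963-base copies was 3.10 in PBS but 1.30 after 5-Aza-CdR and 0.622 for the Combination, with 43, 9 and 5 reads in the 503-base copies. In PBS of set 1, 12 of these 43 reads lay at 1 copy, and the highest density was that of the 217-base copies, at 361.5 reads per Mb against 285 in the 503-base copies.

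**Figure D4:**
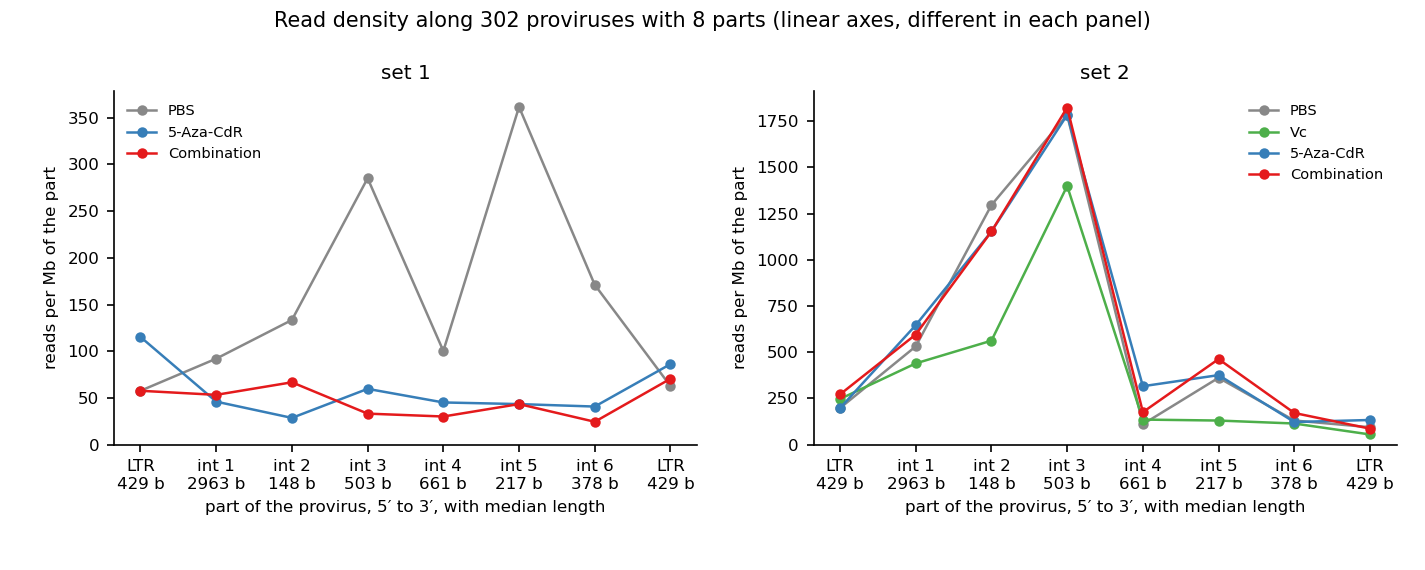
Reads per Mb of each part (linear axes, different in each panel) along 302 proviruses made of an LTR, 6 HERVH-int copies and an LTR, ordered 5′ to 3′ with the median length of each part; lines join the parts of 1 library. The 4 libraries of set 2 peak at the 503-base internal copy, while none of the 3 libraries of set 1 peaks there.

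The LTRs at the ends of these 302 proviruses had few reads. The 5′ LTRs had 7, 14 and 7 reads for PBS, 5-Aza-CdR and the Combination of set 1, and 24, 30, 24 and 33 for PBS, Vc, 5-Aza-CdR and the Combination of set 2. In set 2 a single copy held 14, 13, 12 and 11 of them. This was the LTR7 on chromosome 1 at 70833312 to 70833744, which had 2, 0 and 0 reads in set 1. The 3′ LTRs had 8, 11 and 9 reads across set 1 and 12, 7, 17 and 11 in set 2.

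Internal reads were then counted by the LTR family at the ends. Proviruses with the same LTR family on both sides, and HERVH-int only between, numbered 635 for LTR7 (without the top provirus of chromosome 1), 71 for LTR7Y, 87 for LTR7B and 16 for LTR7C. In PBS of set 2 the internal density was 1211 reads per Mb between LTR7Y copies, 354 between LTR7, 319 between LTR7B and 11.1 between LTR7C. In Vc, 5-Aza-CdR and the Combination of set 2 the LTR7Y proviruses had 886, 1301 and 1500 reads per Mb, against 273, 408 and 389 for LTR7. In set 1 they had 238, 99.6 and 64.2 for PBS, 5-Aza-CdR and the Combination, against 95.3, 32.8 and 41.7 for LTR7.

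With the top provirus of chromosome 1 left out, LTR7Y proviruses had the highest internal density of the 4 LTR families in all 7 libraries and LTR7C proviruses the lowest. With that provirus included, the LTR7 values were 186.7, 44.5 and 68.7 in set 1 and 451, 338, 470.1 and 499.98 in set 2, which put LTR7 above LTR7Y in the Combination of set 1 and left it below in the other 6 libraries. Without the LTR7Y provirus on chromosome 13 the LTR7Y values were 1120, 862, 1166 and 1287 in set 2 and 222, 88.2 and 58.8 in set 1, still above LTR7 in each library when the chromosome 1 provirus is left out too. The margin was smallest for the Combination of set 1, where 20 reads of LTR7Y and 21 of LTR7B proviruses stand behind the values. Proviruses are not replicates of a condition, and no test was made between LTR families. At least 1 internal read was found in 84.5% of LTR7Y proviruses in PBS of set 2, against 54.0% of LTR7, 36.8% of LTR7B and 6.25% of LTR7C proviruses. The provirus of chromosome 19, whose LTR7C lies farther than 100 bases from the internal copies on its 3′ side, is not among the 16. Its 444-base internal copy alone had 8, 2 and 7 reads in set 1, and its 5084-base copy 40, 33, 31 and 62 in set 2. In each library that is more than the 16 proviruses together. The lowest place of LTR7C therefore depends on leaving this provirus out, as does the first place of LTR7Y in the Combination of set 1.

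**Figure D5:**
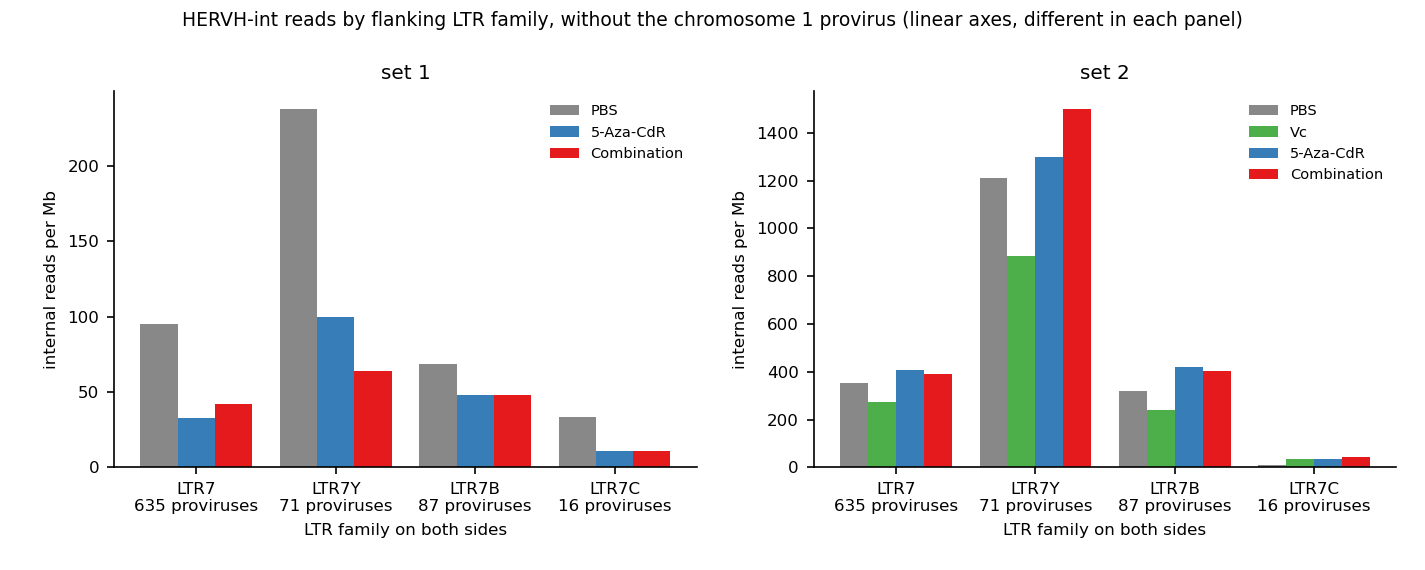
HERVH-int reads per Mb (linear axes from 0, different in each panel) in proviruses with the same LTR family on both sides, by library; bars are single libraries and the top provirus of chromosome 1 is left out. With that provirus left out, and that of chromosome 19 not among the LTR7C proviruses, LTR7Y proviruses stand highest in each library, with 1211 reads per Mb in PBS of set 2 against 354 for LTR7.

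Few LTR copies had reads, whether they flanked an internal copy or stood alone. Of 2242 flanking LTRs, 2.14%, 2.99% and 2.50% had reads in PBS, 5-Aza-CdR and the Combination of set 1, and 3.93%, 2.45%, 3.39% and 3.88% for PBS, Vc, 5-Aza-CdR and the Combination of set 2. Of 1490 solo LTRs the shares were 1.41%, 2.28% and 2.68% in set 1 and 3.09%, 2.82%, 3.96% and 3.89% in set 2. Internal copies flanked on both sides had reads more often, 6.45%, 3.17% and 3.91% of 4293 copies in set 1 and 16.4%, 14.2%, 20.3% and 19.3% in set 2. These shares do not allow for length. Per Mb the order turned in set 1, with 167, 47.7 and 64.3 reads at these internal copies against 201, 92.5 and 89.1 at flanking LTRs. In set 2 the internal copies stayed ahead, at 482, 359, 522 and 550 against 137, 101, 119 and 141. Internal copies without an LTR within 100 bases had reads in between 4.35% and 8.36% of 299 copies over the 7 libraries, above the share of flanked internal copies in the treated libraries of set 1 and below it in the other 5 libraries.

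All solo LTRs together had 47, 46 and 50 reads in set 1. Of 685 solo LTR7 copies 0.146% had reads in PBS of set 1, 1.46% after 5-Aza-CdR and 2.34% for the Combination, with 3, 12 and 18 reads, the 3 of PBS at a single copy. Solo LTR7B copies had 41, 18 and 21 raw reads in the same libraries, and 3.5%, 3.1% and 3.1% of them had reads. Family reads fell as well, from 23131 for PBS to 11531 after 5-Aza-CdR and 14319 for the Combination. In set 2 the solo LTR7 reads were 25 for PBS, 15 for Vc, 16 after 5-Aza-CdR and 23 for the Combination. Solo LTR7B reads there were 14, 29, 30 and 28 in the same order.

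A copy on the opposite strand within 10000 bases, which could supply a complementary transcript, was present for 829 copies and absent for 8885. Copies with such a partner had reads in 4.34%, 1.33% and 3.14% of cases for PBS, 5-Aza-CdR and the Combination of set 1, against 4.36%, 3.14% and 3.47% of copies without. In set 2 the shares were 8.93%, 6.15%, 8.93% and 10.1% with a partner for PBS, Vc, 5-Aza-CdR and the Combination, against 10.3%, 8.77%, 12.7% and 12.3% without. At this distance the share was lower with a partner in each of the 7 libraries, but the difference was not tested, and with a distance of 2000 bases (395 copies) it turned in set 1 to 4.81% with against 4.34% without for PBS and to 3.54% against 3.43% for the Combination.

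The LTR7B reads of PBS in set 1 came to a large part from chromosome 16. There, 6 LTR7B copies of identical length (460 bases), of which 1 had 0 reads in every library, held 58 of the 121 LTR7B reads for PBS, 5 of 36 after 5-Aza-CdR and 6 of 45 for the Combination of set 1. In set 2 they held 4, 1, 0 and 7 reads. The top LTR7B copy was among them (21450925 to 21451384, plus strand), with 14, 1 and 3 reads across set 1 and 1, 1, 0 and 2 in set 2. At all other LTR7B copies the reads numbered 63, 31 and 39 in set 1 and 23, 36, 46 and 35 in set 2. Which of the 6 copies made the RNA cannot be told apart where their sequences are alike.

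The top copies of the remaining families had few reads. For LTR7Y it was a copy on the X chromosome (113231636 to 113232065, plus strand) with 0, 6 and 2 reads across set 1 and 0, 0, 1 and 0 in set 2, so it supplied 6 of the 22 reads of 5-Aza-CdR in set 1 and 1 of the 27 in set 2. The LTR7Y reads came from many copies: 7, 14 and 14 of 249 copies had reads across set 1 and 11, 12, 24 and 19 in set 2. For HERVH48-int it was a copy on chromosome 7 (102614856 to 102617487, plus strand) with 3, 2 and 3 reads across set 1 and 4, 4, 4 and 5 in set 2, level across treatments. A copy on chromosome 14 (70811756 to 70812859, plus strand), named after its values were seen, had 0, 1 and 0 reads across set 1 and 0, 0, 7 and 0 in set 2, and so held 7 of the 24 HERVH48-int reads of 5-Aza-CdR in set 2. For LTR7A it was a copy on the X chromosome (108421574 to 108422023, plus strand) with 1 read after 5-Aza-CdR and 2 for the Combination of set 1 and 0 elsewhere.

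Other retroviral families gave a measure of how the members compare, counted in the same family fit. Of 8 families of HERV9-int and LTR12, 3 rose after 5-Aza-CdR and 4 after the Combination, with median log2 changes of 1.95 and 2.48. Of HERV17-int and LTR17 (2 families tested), HERVE and LTR2 (5), HERVK-int and LTR5 (4) and MER48 (1), 0 were called in either comparison, like the members. MER48, the LTR that accompanies HERVH48-int, had a log2 change of 0.68 after 5-Aza-CdR and 0.58 after the Combination.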

How the data were processed

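The members, lists and named loci were chosen with earlier results of these data known. Per the file headers, the authors deposited raw read counts per repeat family and per annotated copy, and for set 1 a ratio of each family count to the library's tRNA reads, from which the tRNA number was recovered. Per the labels, coordinates are hg19 (printed 1-based), while Bowtie2 and Picard appear in the submitters' processing notes of set 2 alone; the counting tool and the placement of reads with several matches are not given in the sources used here. Counts were fitted by quasi-likelihood in edgeR 4.0.16 (R 4.3.3, trimmed mean of M-values) with treatment and set as terms: families (default filter, 352 tested), loci (at least 30 reads over 7 libraries, 409 tested) and, added later, 446 units with member copies joined over gaps of at most 100 bases. The workbook named in each sample's description defines the set, so the term for it is a batch from the labels. DESeq2 1.42.0 was an alternative. The 498 families are those in both family sheets, before the low-count filter that left 352. In the locus sheets 2 emptied lines were skipped. Shares carry Wilson and ratios exact conditional binomial intervals (95%, scipy); PCR reads are not independent molecules, so intervals and the floor of 3 counts cover counting error only. Loci were named as the 10 with the highest mean share of member reads, the top locus of each family and each locus past adjusted p 0.05; proviruses were named as those with the highest mean share or past 0.05, chosen after seeing their values. The family and locus fits were also run on simulated counts with a common spread and no difference between sets. These data differ from that setting, so the run does not vouch for the calls. The locus and provirus fits had 2 residual degrees of freedom and took their spread wholly from all loci together, on which their p-values rest. No genome of build hg19 was used here, so genes at these loci are not described.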

Additional observations from a re-analysis of the deposited data

How the results depend on the processing

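Over the 13 alternatives, the log2 changes of LTR7Y and HERVH48-int after 5-Aza-CdR and the Combination kept their direction, and of 156 family values in all 135 did. HERVH-int turned to 0.10 after 5-Aza-CdR without the replicate block (no term for the set), which left 0 member families and 0 member loci called; LTR7B turned to -0.21 in that fit, to -0.028 without a filter, to -0.0039 with at least 100 reads and to -0.16 with total reads, LTR7 to -0.18 and LTR7C after the Combination to -0.094 with total reads. Leaving out 1 library at a time, the values after 5-Aza-CdR ran from -0.64 to 0.23 for HERVH-int, -0.27 to 0.40 for LTR7, -0.62 to 0.80 for LTR7B and -0.00098 to 0.71 for LTR7C, and after the Combination from -0.59 to 0.13, -0.46 to 0.22, -0.82 to 0.57 and -0.034 to 0.68. In the same fits 0 to 1 member families were called after 5-Aza-CdR (LTR7Y), the Combination (LTR7B, lower without PBS of set 2) and Vc (lower without PBS of set 2), and 0 to 2 member loci after 5-Aza-CdR and after the Combination. Called member loci after 5-Aza-CdR were 0 with at least 10 reads, with at least 100, with total reads and in DESeq2; joined into proviruses, 1 was called after the Combination. Shares of locus reads in set 1 were 0.803%, 1.04% and 0.990% in PBS, 5-Aza-CdR and the Combination. Ratios to PBS in set 1 became 2.32 and 6.86 by tRNA and 1.30 and 1.23 by locus reads, and the Combination over 5-Aza-CdR became 2.96 by tRNA; without the 3 proviruses, an alternative chosen after seeing the data, they were 0.969 and 0.855, and in set 2 0.960 after 5-Aza-CdR and 0.732 for the Combination over 5-Aza-CdR. With at least 2 reads, copies counted as present were 1.23%, 0.618% and 0.597% in set 1 and 4.08%, 3.16%, 4.94% and 4.73% in set 2; with partners within 2000 bases the shares were 4.81%, 1.01% and 3.54% in set 1 (4.34%, 3.07% and 3.43% without a partner) and 7.09%, 4.30%, 6.58% and 7.59% in set 2. A neighbour gap of 1000 bases moved no share of LTR copies beyond its counting interval. The 2 libraries a treatment has at most, and the low counts of most copies, limit what the fits can call.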
